A study of Homo sapiens with 17 samples.

Results

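NODAL, LEFTY1, LEFTY2, BAMBI, SMAD3, SMAD7, SKIL, ID1, ID2 and ID3 are a ligand, its antagonists, a signal transducer, intracellular brakes and target genes of the Nodal and BMP pathways. These 10 genes were taken by name from the 20037 protein-coding genes of the RefSeq table for GRCh38.p14. For each gene, every summit from 20 kb below to 20 kb above the gene was collected in each of 17 CUT&Tag lists, which gave 1256 summits in all. CUT&Tag uses an antibody to bring a transposase to chromatin, and a summit is the base of highest signal in a called peak. Each summit was described by its percentile, which is the share of summits in its own list whose score was equal or lower. A gene with no summit in its window was given a percentile of 0.

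The libraries came from H1, an established human pluripotent stem cell line grown in mTeSR1 medium. A virus brought in an shRNA against HNRNPU, a nuclear protein that binds RNA, or the control shRNA against luciferase (shLUC), and puromycin selected the cells that carried it. H3K4me1, a histone mark of primed and active enhancers, and H3K27ac, a mark of active enhancers and promoters, were each profiled in 4 shHNRNPU libraries (shHNRNPU#1 and shHNRNPU#2, with 2 repeats each) and in 2 shLUC libraries. The antibody named POLIIS2P was used in 1 shHNRNPU#1 and 2 shLUC libraries, and HNRNPU was profiled in 2 libraries of cells that received no shRNA. The protocol in the labels lists no antibody against H3K4me1 or POLIIS2P. Nothing in the labels says that repeats came from separate cultures, so the p-values measure the spread between these libraries only. No list measures the HNRNPU protein or its RNA, so the knockdown was not checked here.

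The sample titles of the 4 shLUC histone libraries and the names of their files gave opposite antibodies. The file names were followed here, and counts under the titles are given beside them. By file name the shLUC H3K4me1 lists held 179137 and 181357 summits against 147145 to 214333 in shHNRNPU cells. The shLUC H3K27ac lists held 62449 and 90914 summits against 40487 to 85142. The HNRNPU lists held 35526 and 34649 summits and the POLIIS2P lists 79949 to 87456. The number of reads behind each list is unknown. The label of pluripotent cells was checked on markers. All 7 pluripotency markers had summits with each antibody, with a median strongest percentile of 86.8 for H3K27ac (74.2 to 99.3 by marker) and 99.4 for POLIIS2P (75.9 to 99.96). Markers of other lineages were not all without H3K27ac. The medians were 0 for the 3 endoderm markers and the mesoderm marker HAND1, 54.0 for the mesoderm marker MESP1, 42.2 and 58.5 for the neural markers SOX1 and PAX6, and 32.9 and 78.8 for the fibroblast markers COL1A2 and COL1A1. Naive pluripotency markers ran from 56.4 to 80.2, and the liver, erythroid and T cell markers had medians of 0. For POLIIS2P the medians ran from 31.6 to 55.9 for mesoderm, 52.3 to 73.5 for endoderm and 43.5 to 45.6 for fibroblast markers. They ran from 71.7 to 77.9 for neural and 31.5 to 97.2 for naive markers, and were 0 for the liver, erythroid and T cell markers. The ranges of the classes thus overlapped. Of the summits of a repeat, 2.15% to 8.70% fell on a summit base of its partner, so no list was a copy of its partner. Lists of different antibodies or conditions were not compared in this way.

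Nodal is a ligand of the TGF-beta superfamily that signals through activin receptors to SMAD2 and SMAD3, and this signal helps to keep human pluripotent stem cells undifferentiated. It switches on its own gene and the genes of its antagonists LEFTY1 and LEFTY2, which makes a feedback loop. BMP ligands signal through SMAD1, SMAD5 and SMAD9, for which the ID genes are the best known targets. SMAD7, SKIL and BAMBI dampen these signals inside the cell or at its membrane.

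Promoter sequences from RefSeq (GRCh38.p14) were found for 8 of the 10 genes, and LEFTY1 and LEFTY2 had no entry. The 250 bases before the start site are shown for the 5 genes on which the results below turn. Each of the 4 antibodies placed summits at the BAMBI promoter, SKIL and NODAL were the members whose H3K4me1 groups did not overlap, and ID3 was the member whose H3K27ac groups did not overlap. ID1 is shown because its summits lay elsewhere, as no library had a summit in the stretch from 250 bases before to 50 bases after its start site. Capitals mark CAGAC (the core of the SMAD box), GGCGCC (a motif of GC-rich SMAD sites), AATNNACA (a FOXH1-like motif) and TATAAA on either strand, and GTCTG is CAGAC read on the other strand. BAMBI lies on the plus strand (chr10:28677271-28677520), SKIL on the plus strand (chr3:170357465-170357714), NODAL on the minus strand (chr10:70441682-70441931), ID1 on the plus strand (chr20:31605039-31605288) and ID3 on the minus strand (chr1:23559502-23559751).
BAMBI: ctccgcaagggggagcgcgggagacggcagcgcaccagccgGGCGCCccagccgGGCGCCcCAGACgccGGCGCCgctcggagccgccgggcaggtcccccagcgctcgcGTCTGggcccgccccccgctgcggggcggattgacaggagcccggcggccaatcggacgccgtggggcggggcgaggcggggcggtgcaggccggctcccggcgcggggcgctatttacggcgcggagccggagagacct
SKIL: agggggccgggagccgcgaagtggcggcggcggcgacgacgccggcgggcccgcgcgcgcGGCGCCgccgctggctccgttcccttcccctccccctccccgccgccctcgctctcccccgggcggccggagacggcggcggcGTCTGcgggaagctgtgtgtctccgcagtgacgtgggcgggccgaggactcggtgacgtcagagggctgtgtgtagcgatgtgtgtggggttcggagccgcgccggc
NODAL: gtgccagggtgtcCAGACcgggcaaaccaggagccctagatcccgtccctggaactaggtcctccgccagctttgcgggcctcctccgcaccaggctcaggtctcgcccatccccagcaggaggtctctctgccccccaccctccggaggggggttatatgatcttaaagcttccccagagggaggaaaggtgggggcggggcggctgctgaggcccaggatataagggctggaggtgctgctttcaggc
ID1: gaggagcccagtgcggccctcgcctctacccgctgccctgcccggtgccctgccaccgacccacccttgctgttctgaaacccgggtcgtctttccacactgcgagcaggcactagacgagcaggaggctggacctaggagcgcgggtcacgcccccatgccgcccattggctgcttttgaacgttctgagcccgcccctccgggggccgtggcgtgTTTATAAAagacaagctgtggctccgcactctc
ID3: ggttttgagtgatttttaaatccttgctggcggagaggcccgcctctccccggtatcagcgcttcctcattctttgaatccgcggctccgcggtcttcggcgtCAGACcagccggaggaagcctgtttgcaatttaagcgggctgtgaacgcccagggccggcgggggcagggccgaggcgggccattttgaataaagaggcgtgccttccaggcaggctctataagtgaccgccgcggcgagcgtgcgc

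The motif CAGAC stood before or just after a start site in 9 of the 14 member promoters, since some genes have several start sites, and in 45.3% of the 35116 promoters of the table. GGCGCC was in 3 of 14 member promoters (19.2% of all promoters), AATNNACA in 1 of 14 (11.0%) and TATAAA in 2 of 14 (11.5%). BAMBI held 3 copies of GGCGCC and 2 of CAGAC between -209 and -136 from the start, where the last base before the start is -1. In ID1 the forward TATAAA at -31 to -26 overlapped a match on the other strand at -33 to -28. These matches describe the letters only.

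**Figure D1:**
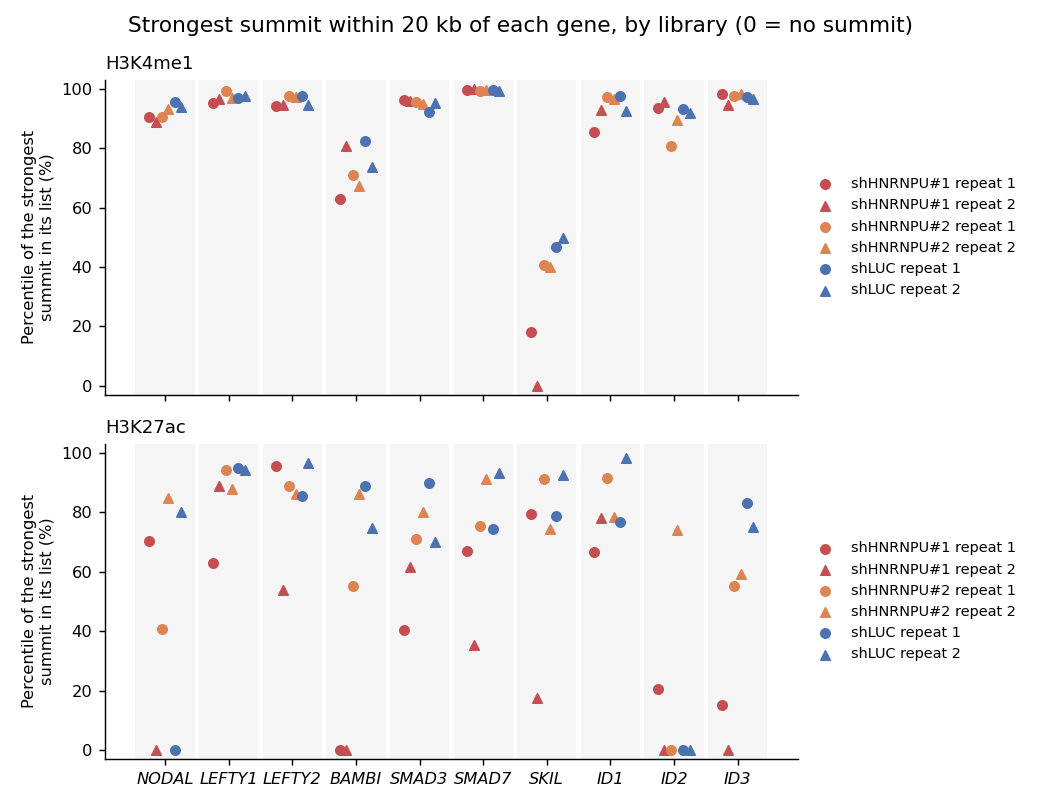
Percentile of the strongest summit within 20 kb of each gene (y axis, in percent of the library's own list, 0 where there was no summit) for the 10 genes (x axis), with 1 point per library, for H3K4me1 above and H3K27ac below. The H3K4me1 points of SMAD7 all lie above 99, SKIL has the lowest H3K4me1 points, and both shHNRNPU#1 points of BAMBI lie at 0 for H3K27ac.

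All 10 genes had H3K4me1, H3K27ac, POLIIS2P and HNRNPU summits in at least 1 library. The plot of strongest histone summits by library shows that SMAD7, the inhibitory SMAD, had the highest median for H3K4me1 (99.6, from 99.2 to 99.8), with only the highest LEFTY1 value, 99.3, inside its range. ID3, LEFTY1, LEFTY2, SMAD3, ID1, ID2 and NODAL followed with values from 80.7 to 99.3, and neighbours in this order overlapped. BAMBI, a decoy receptor, lay between 62.8 and 82.4, and SKIL, a repressor of SMAD complexes, was lowest in each library, between 0 and 49.6. For H3K27ac the highest medians over 6 libraries were those of LEFTY1 (91.4, from 63.0 to 94.8) and LEFTY2 (87.5, from 54.0 to 96.6), and neighbouring genes in that order overlapped. ID2, a BMP target, had H3K27ac summits in only 2 of 6 libraries, at 20.6 and 74.0.

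Many of the summits fell at the same places in different libraries. Joined across the 17 lists wherever neighbours were at most 250 bp apart, the 1256 summits made 274 elements, of which 76 held a summit of 1 library and 7 held summits of at least 14 libraries. An element near LEFTY1 and another upstream of ID1 held summits of all 17. No library-by-library sharing of this kind says that an element acts on the gene.

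At NODAL the most frequent element covered the start site (chr10:70441266-70442735) and held summits of 14 libraries. The strongest H3K4me1 summit lay elsewhere, at chr10:70455500, which is -13819 bp from the start and beyond the upper end of the gene. It lies between NODAL and PALD1 (chr10:70458485-70568450), nearer to PALD1. That base was the strongest NODAL summit in shHNRNPU#1 repeat 1, in both shHNRNPU#2 libraries and in shLUC repeat 1, and shLUC repeat 2 had it within a few bases. Only shHNRNPU#1 repeat 2 differed, with its strongest summit at -9342 bp. H3K27ac was uneven at NODAL, with no summit in shHNRNPU#1 repeat 2 and none in shLUC repeat 1, and with percentiles of 70.2, 40.6 and 84.6 in the other shHNRNPU libraries and 80.1 in shLUC repeat 2.

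For H3K4me1 the NODAL window reached percentiles of 90.4 and 88.9 in shHNRNPU#1, 90.5 and 93.3 in shHNRNPU#2, and 95.4 and 93.8 in shLUC. Each shHNRNPU library was below both shLUC libraries, by a narrow margin in shHNRNPU#2 repeat 2. The means were 90.8 ± 1.85 (SD, n = 4) and 94.6 ± 1.14 (SD, n = 2), a difference of -3.86 percentile points (two-sided exact permutation test over 15 assignments, p = 0.0667). This is the smallest p-value that 4 libraries against 2 can give, so no member can pass 0.05. Within 5 kb of NODAL the groups overlapped, and under the sample titles the difference was 50.7 points in the other direction.

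**Figure D2:**
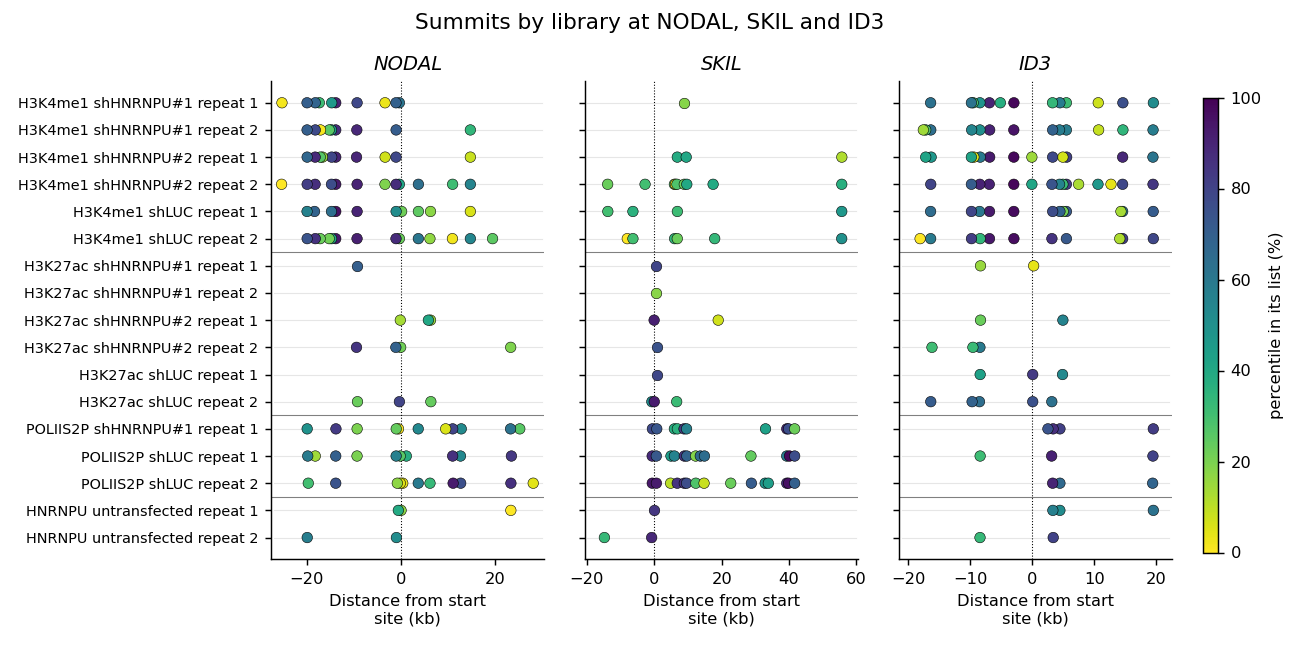
Position of every summit in the windows of NODAL, SKIL and ID3 (x axis, distance from the start site in kb) in each of the 17 libraries (rows), coloured by percentile in its list. NODAL and ID3 show columns of H3K4me1 summits shared by all 6 libraries, SKIL shows H3K27ac close to the start in all 6, and the start of ID3 holds strong H3K27ac summits in both shLUC libraries alone.

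LEFTY1 and LEFTY2 encode secreted Nodal antagonists and lie near each other on chromosome 1 with windows that do not overlap. Their coding sequences are similar, and reads that fit both copies could have been placed at either, so values inside the genes are uncertain. At LEFTY1 the strongest H3K27ac summit of 4 of the 6 libraries lay just beyond the upper end of the gene (chr1:225890414-225890685), in an element with all 6 H3K4me1 and all 6 H3K27ac libraries but no POLIIS2P or HNRNPU summit. The element with all 17 libraries lay farther out (chr1:225898907-225899768), 10106 bp from the gene. There the POLIIS2P percentiles were 75.3 in shHNRNPU#1 against a median of 92.7 in shLUC, and HNRNPU had a median of 83.2.

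The strongest summit in the LEFTY2 window lay well outside the gene in each H3K27ac, POLIIS2P and HNRNPU library, so those percentiles of LEFTY2 are not values of the gene itself. Elements closer to LEFTY2 lay inside the gene (chr1:225939297-225939726, 15 libraries) and beyond its upper end (chr1:225950853-225951232, 13 libraries). The last of these held all 6 H3K4me1 libraries, with medians of 95.9 in shHNRNPU and 94.9 in shLUC, but H3K27ac summits of low percentile in 3 libraries only.

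**Figure D3:**
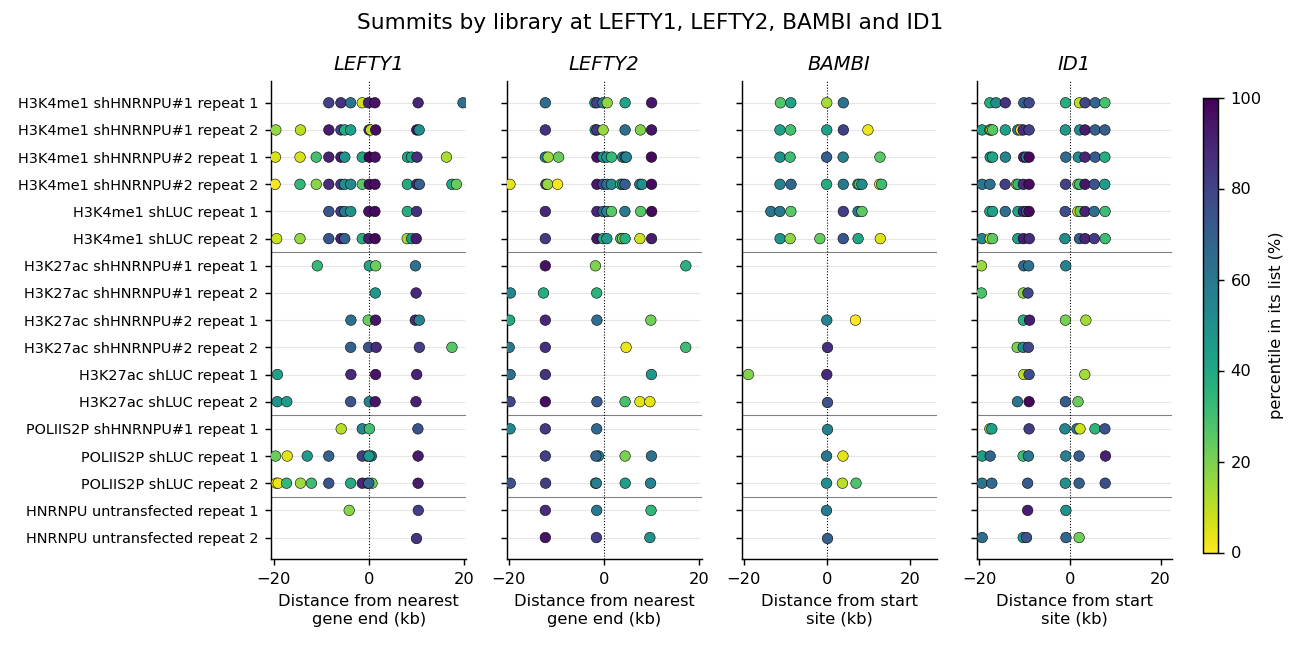
Position of every summit in the windows of LEFTY1, LEFTY2, BAMBI and ID1 (x axis, kb from the nearest gene end for the LEFTY genes and from the start site for BAMBI and ID1) in each of the 17 libraries (rows), coloured by percentile. The columns near +10 kb at LEFTY1 and near -9 kb at ID1 hold summits of all 17 libraries, and the H3K27ac rows of BAMBI are empty for shHNRNPU#1.

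At BAMBI the summits of H3K27ac, POLIIS2P and HNRNPU met at the promoter printed above (chr10:28677320-28677523, 13 libraries). H3K27ac there was absent from both shHNRNPU#1 libraries, stood at 55.0 and 86.2 in the shHNRNPU#2 libraries and at 88.8 and 74.7 in the shLUC libraries. The shRNAs thus gave different values, and the groups overlapped (difference of -46.4 percentile points, two-sided exact permutation test, p = 0.2). H3K4me1 had summits at this promoter in all 4 shHNRNPU libraries, at 13.4, 43.0, 71.1 and 39.0, and in neither shLUC library, so both marks were present in the shHNRNPU#2 libraries. Farther into the gene the H3K4me1 element at chr10:28681293-28681510 held all 6 libraries.

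SMAD7 carried its strongest H3K4me1 summit inside the gene, at chr18:48937712 or within a few bases, in all 6 libraries. The strongest SMAD7 summit of HNRNPU repeat 2 and of POLIIS2P in shHNRNPU#1 lay beside it, at chr18:48937670. In the shHNRNPU#2 and shLUC libraries SMAD7 H3K27ac was strongest elsewhere, just upstream of the start that lies farthest from the gene's 3′ end, at chr18:48952816 and nearby. H3K4me1 had summits there in all 4 shHNRNPU libraries and in neither shLUC library. This site and the BAMBI promoter were the 2 H3K4me1 sites of the members with that pattern.

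SKIL had the weakest H3K4me1 of the members and yet had H3K27ac within 1 kb of its start in all 6 libraries. The H3K4me1 percentiles were 18.1 and 0 in shHNRNPU#1, 40.6 and 39.9 in shHNRNPU#2, and 46.7 and 49.6 in shLUC. All 4 shHNRNPU libraries were below both shLUC libraries, and the shHNRNPU#2 libraries were much nearer to them. The means were 24.7 ± 19.5 (SD, n = 4) and 48.2 ± 2.05 (SD, n = 2), a difference of -23.5 points (two-sided exact permutation test, p = 0.133). In shLUC the strongest summit stood beyond the 3′ end of SKIL, at chr3:170413346 and chr3:170413333, and the shHNRNPU#2 libraries had summits there too, at 11.9 and 36.7. None of these summits was among the 20000 strongest of its list. H3K27ac at the SKIL start was 79.3 and 17.6 in shHNRNPU#1, 91.2 and 74.2 in shHNRNPU#2, and 78.9 and 92.5 in shLUC, so the groups overlapped.

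SMAD3, the transducer shared by Nodal, activin and TGF-beta, is the longest of the 10 genes, with 5 start sites over 129568 bp. It accordingly held the most H3K4me1 summits, 29 to 46 per library, at 1.71 to 2.71 summits per 10 kb of window. H3K4me1 stood between 94.8 and 96.1 in shHNRNPU and at 92.1 and 95.0 in shLUC, and the groups overlapped. H3K27ac ranged from 40.5 to 80.0 in shHNRNPU and stood at 89.9 and 69.9 in shLUC. The strongest H3K27ac summit of SMAD3 lay at a different place in each library.

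The ID genes encode inhibitors of basic helix-loop-helix transcription factors. ID1 had its strongest H3K27ac summit upstream of the gene in 5 of 6 libraries (chr20:31595677-31596390, near -9004 bp), in the element with all 17 libraries. At chr20:31596287 the same base was the summit of 5 lists. H3K27ac at ID1 was 66.5, 78.2, 91.6 and 78.4 in shHNRNPU and 76.9 and 98.2 in shLUC, and the groups overlapped. ID2 had H3K4me1 at chr2:8693395-8693550 in all 6 libraries, 11346 bp from its start, and almost no H3K27ac. ID3 had its strongest H3K4me1 at chr1:23562472-23562492, -2991 bp from the start, in all 6 libraries, and no other antibody had a summit in that element.

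The H3K27ac values of ID3 separated the groups. The strongest summit in its window was 15.3 and 0 in shHNRNPU#1, 55.2 and 59.0 in shHNRNPU#2, and 83.1 and 75.1 in shLUC. All 4 shHNRNPU values were below both shLUC values (means of 32.4 ± 29.3, SD, n = 4, and 79.1 ± 5.66, SD, n = 2, a difference of -46.7 points, two-sided exact permutation test, p = 0.133). In both shLUC libraries the strongest summit was at the start site itself, 58 and 61 bp into the gene. Within 1 kb of the start, shHNRNPU#1 repeat 1 had a summit at 3.68 and the other 3 shHNRNPU libraries had none. Of the 4 shHNRNPU lists the shortest, with 40487 summits, was shHNRNPU#1 repeat 2, and over all genes the median strongest H3K27ac percentile ran from 67.0 in that list to 86.4 in shLUC repeat 2. The part of list length in the ID3 difference was not tested. Groups that do not overlap stay apart when a library or an shRNA is left out, so those settings could not change the ID3 call. Under the sample titles ID3 was also below, but shHNRNPU H3K27ac lists were then set against shLUC lists whose file names give H3K4me1. Among the 20000 strongest summits the ID3 groups overlapped.

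**Figure D4:**
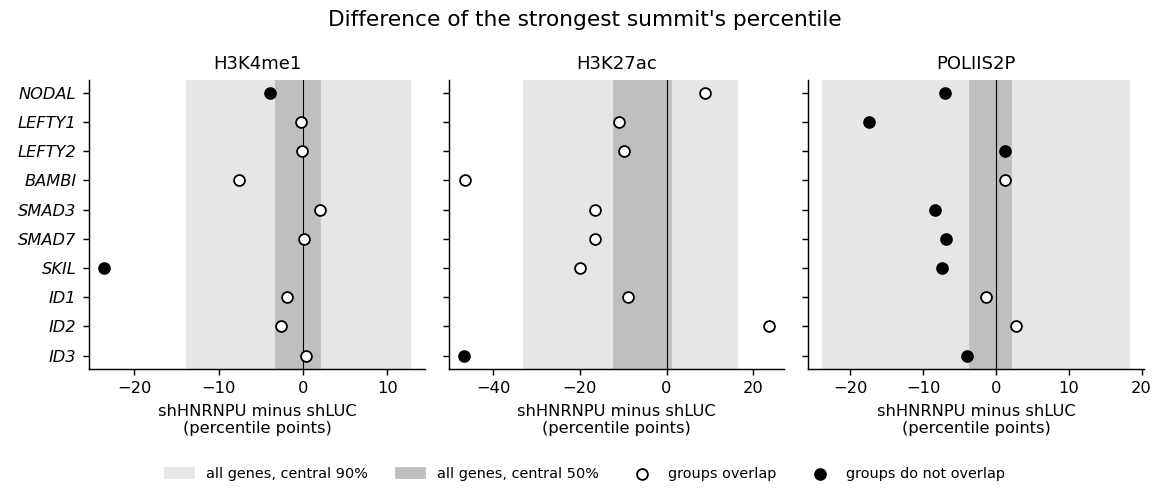
Difference in the strongest summit's percentile, shHNRNPU minus shLUC (x axis, percentile points), for the 10 genes (y axis) and 3 antibodies, with filled points where the groups did not overlap. Shaded bands hold the central 50% and 90% of all genes tested, and SKIL for H3K4me1, BAMBI, ID3 and ID2 for H3K27ac lie outside the wider band.

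Taken over the 10 genes, H3K4me1 was lower in all 4 shHNRNPU libraries than in both shLUC libraries at 2 genes, NODAL and SKIL, where 8.19% of the 18872 genes tested were, and higher at 0, where 7.10% of all genes were. For H3K27ac, 1 gene, ID3, was lower (11.4% of 18573 genes) and 0 were higher (2.07%). The count of lower genes was 5 without shLUC repeat 1, 4 without shLUC repeat 2 and 2 without 1 of the shHNRNPU#2 libraries, and for H3K4me1 it was 4 without shLUC repeat 2. Groups of fewer libraries come apart more easily, and no share of all genes is given for these reduced sets. The median difference of the 10 genes was -1.03 points for H3K4me1 and -13.8 for H3K27ac, and that of all genes was -0.23 and -3.21. The number of H3K4me1 summits was lower in shHNRNPU at 0 genes (2.84% of all genes) and higher at 1, ID3 (1.66%), with 13, 13, 13 and 15 summits against 12 and 11. H3K27ac summits were fewer at 0 genes (4.57%) and more at 0 (0.382%). With 10 genes, counts of 0 to 2 are near these shares.

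Under the sample titles the counts differed for the members and for all genes alike. H3K4me1 was then higher in shHNRNPU at 6 of 10 genes, against 40.1% of all genes, and lower at 1, SKIL, against 22.4%. H3K27ac was lower at 7 of 10, against 44.3% of all genes, and higher at 0, against 15.3%. NODAL then changed direction for H3K4me1, with a difference of 50.7 points, while SKIL and ID3 kept theirs. If the file names are right, each of these comparisons sets H3K4me1 lists against H3K27ac lists. A kept or changed direction then says nothing about the shRNAs.

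Single sites were compared by joining the summits of the 6 libraries of a mark at 250 bp. The windows of the 10 genes held 220 H3K4me1 sites, of which 5 were present in both shLUC libraries and in no shHNRNPU library (2.27%, against 1.24% of 226094 sites at all genes) and 2 were present in all 4 shHNRNPU libraries alone (0.909%, against 0.573%). The 5 sites of shLUC were at NODAL, SKIL, ID3 and, with 2, SMAD3, and none had a percentile above 58.5. Of 94 H3K27ac sites, 1 was present in both shLUC libraries alone (1.06%, against 1.81% of all sites) and 0 in shHNRNPU alone (0.252%). That site was at the far lower edge of the LEFTY1 window, inside TMEM63A.

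**Figure D5:**
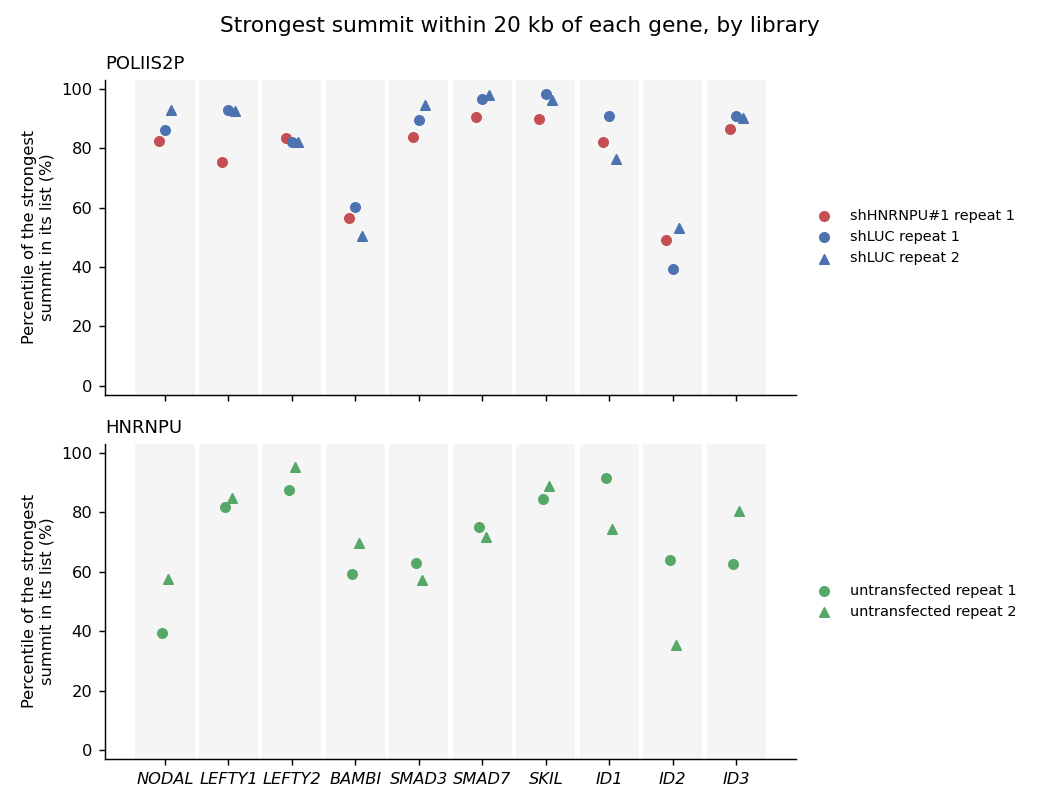
Percentile of the strongest summit within 20 kb of each gene (y axis, in percent of the library's own list) for the 10 genes (x axis), with 1 point per library, for POLIIS2P above and HNRNPU below. In POLIIS2P the shHNRNPU#1 point lies below both shLUC points for NODAL, LEFTY1, SMAD3, SMAD7, SKIL and ID3.

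POLIIS2P gave no test because shHNRNPU had 1 library. The feedback inhibitors SKIL and SMAD7 ranked highest of the 10 genes in both shLUC libraries. SKIL stood at 89.7 in shHNRNPU#1 and at 98.1 and 96.1 in shLUC. SMAD7 stood at 90.5 against 96.6 and 98.0. In both genes the shHNRNPU#1 library was the lowest of the 3. The window of the ligand gene NODAL had 82.5 against 86.0 and 92.9, with the strongest summit at a different place in shHNRNPU#1 than in shLUC. The window of its antagonist LEFTY1 had 75.3 against 92.8 and 92.6, the widest gap of the members. These LEFTY1 values came from summits outside the gene (chr1:225899458-225899497). At the upper end of LEFTY1 itself the percentile was 29.3 in shHNRNPU#1 against a mean of 56.6 in shLUC. SMAD3 had 83.6 against 89.5 and 94.5, and ID3 had 86.4 against 90.7 and 90.1. BAMBI and ID2 stood lowest, between 39.5 and 60.2, and the shHNRNPU#1 value lay between those of shLUC for both, as it did for ID1. In all, the shHNRNPU#1 value was below both shLUC values at 6 of 10 genes, where 39.5% of 17062 genes were, and above both at 1, LEFTY2 (32.1% of all genes), whose values of 83.3, 82.0 and 82.2 came from a summit outside the gene. The median difference was -5.43 points for the 10 genes and -0.13 for all genes.

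The number of POLIIS2P summits was lower in the shHNRNPU#1 library at 5 genes (28.1% of all genes) and higher at 2, ID1 and ID3 (21.9%). SKIL had 10 summits against 13 and 15, SMAD7 9 against 14 and 14, and LEFTY1 4 against 9 and 12. The windows together held 67 summits in shHNRNPU#1 and 84 and 85 in shLUC, which is 8.38 per 10000 summits of the list against 9.60 and 9.94. Of 133 POLIIS2P sites, 23 were in both shLUC libraries alone (17.3%, against 9.28% of all sites) and 20 in the shHNRNPU#1 library alone (15%, against 15.7%). LEFTY1 held 5 of the 23, SMAD3 5, SMAD7 4 and SKIL 4, and SMAD3 held 11 of the 20.

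The strongest POLIIS2P summit often lay just past the 3′ end of the gene. Of the 8 members with a strand in the promoter table, 6 had it within 3000 bp past the end in each shLUC library and 4 in shHNRNPU#1, a limit chosen after the positions were seen. Over all genes with a strand and a summit the share was 12.2% and 11.9% in shLUC and 10.6% in shHNRNPU#1. ID2, ID3, SKIL and SMAD3 had it there in all 3 libraries, 2156 bp past the end of SMAD3 in shHNRNPU#1 for example. The SMAD3 window also reaches the gene AAGAB, and which gene the SMAD3 summit belongs to cannot be told. SMAD7 had its strongest summit 545 bp past its end in both shLUC libraries and inside the gene in shHNRNPU#1. In that library the SMAD7 summit past the end stood at 86.5. NODAL had summits past its end and at the distal H3K4me1 element in all 3 libraries, and their order differed. The summit past the end was the stronger in shLUC, at 86.0 and 92.9 against 69.6 and 74.4, and the distal summit in shHNRNPU#1, at 82.5 against 79.9. The summit past the end (chr10:70430561-70430665) lay between NODAL and the neighbouring gene EIF4EBP2, which spans chr10:70404145-70428618. POLIIS2P also had a summit inside EIF4EBP2 (chr10:70418179-70418362) in all 3 libraries. Which of these genes the summit past the end belongs to cannot be told, although NODAL was counted among the 6.

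HNRNPU summits of the 2 repeats lay within 250 bp of each other at 11 sites in the windows of 5 members, LEFTY2, BAMBI, SMAD7, ID1 and ID3, where 70.0% of all protein-coding genes had such a site. With repeats within 500 bp the count was 8 members (74.2% of all genes), and with the deposited interval list 10 (88.2%), so the count of members stood below the share of all genes at 250 bp and above it with either alternative. SMAD7 had 4 of these sites, LEFTY2 3, ID1 2 and BAMBI and ID3 1 each. The element upstream of ID1 stood at 91.6 and 74.4. Within 1 kb of a start, sites were found at BAMBI (59.1 and 69.8), SMAD7 (17.0 and 5.65) and ID1 (49.3 and 67.5). The SKIL promoter had summits of 84.3 and 88.9 in the repeats, higher than these, but they lay 726 bp apart. Of the 11 sites, 10 had H3K4me1 within 500 bp in at least 3 of 4 shHNRNPU libraries (80.2% of 17226 HNRNPU sites did) and 8 in both shLUC libraries (76.8%). The other 3, at BAMBI and at 2 sites of SMAD7, had it in neither shLUC library.

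Another 44 genes of the Nodal, activin, TGF-beta and BMP pathways were counted beside the members. H3K4me1 was lower in shHNRNPU at 5 (8.19% of all genes were) and higher at 5 (7.10%), so these counts are near the background. The lower genes were the ligand TGFB2, the receptors ACVR1 and ACVR2A, the transducer SMAD9 and the target MSX2. The higher genes were the receptor BMPR2, the transducer SMAD5 and the inhibitors SMAD6, CHRD and FST. H3K27ac was lower at 1, SMAD9 (11.4% of all genes were), and higher at 1, FST (2.07%). These 2 were the genes whose groups did not overlap in the same direction for both marks, where 0.868% of 18326 genes were lower and 0.207% higher for both. SMAD9, which carries BMP signals, stood at 92.0 ± 1.78 (SD, n = 4) in shHNRNPU and 94.5 ± 0.912 (SD, n = 2) in shLUC for H3K4me1, and at 34.3 ± 32.2 and 80.1 ± 13.2 for H3K27ac. FST, encoding the activin antagonist follistatin, stood at 94.4 ± 2.18 and 91.0 ± 0.793 for H3K4me1, and at 84.0 ± 4.50 and 79.0 ± 0.636 for H3K27ac. Each of these 4 differences had p = 0.133 in the two-sided exact permutation test. For POLIIS2P, 19 of the 42 genes tested were lower and 10 higher in the shHNRNPU#1 library, where 39.5% and 32.1% of all genes were. The ligand genes were lower at 5 of 6 (CRIPTO, BMP2, BMP7, TGFB1 and TGFB2), with no test.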

How the data were processed

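CUT&Tag libraries of H1 cells were processed by the authors with cutadapt, Bowtie2, SAMtools and MACS2 on hg38, per the labels, which also name deepTools. Versions, parameters and control libraries are not given in the sources used here. The authors deposited 1 summit list per library, whose last column was read as a −log10 p-value or q-value, since the lowest value was 2.00 to 2.01 in the histone lists and 1.30 in the others. A further deposited list of HNRNPU intervals carries no score other than 0, so only its positions served. Such scores grow with read depth, which is unknown, so each was converted to a percentile within its list, and longer lists hold more weak summits. The numbers of the repeats and the groups came from the sample titles.

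Windows reached 20 kb beyond each gene of the RefSeq table, and members were compared by the strongest summit in the window. Groups were called apart where all 4 shHNRNPU libraries lay on 1 side of both shLUC libraries, and this count was read against all genes with a summit in any of these libraries. Differences of means were tested by exact permutation over 15 assignments. Sites were summits chained at 250 bp. HNRNPU sites needed both repeats within 250 bp, and marks were counted within 500 bp. Distances are from the nearest RefSeq start site, and for LEFTY1 and LEFTY2 from the nearest gene end by coordinate. The alternatives were the 20000 strongest summits, a 5 kb window, antibodies as titled, each shRNA alone, log10 ranks, chaining at 500 bp, leaving out each library and a replicate block. The calls were tested on simulated data with planted changes. All 10 members are named, and of the other pathway genes those whose groups did not overlap in the same direction for both histone marks. Further pathway genes behind counts of 5 or fewer were named after their values were seen. The members and lists were chosen with earlier results of these data known. Some elements and pathway genes are not reported here. The paper listed for the study describes mouse cells, so its methods were not used. Python 3.11.15, numpy 2.4.6, pandas 2.3.3 and matplotlib 3.10.9 were used.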

Additional observations from a re-analysis of the deposited data

Results flagged for a closer look

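Of 40 groups of 4 shHNRNPU libraries examined (10 genes, the strongest percentile and the number of summits, for H3K4me1 and H3K27ac), 3 met Dixon's criterion for a library apart from the others, which chance meets in about 1 in 20 groups of values without ties. The strongest H3K4me1 summit of ID3 stood at 94.6 in shHNRNPU#1 repeat 2 and between 97.7 and 98.1 in the other 3 libraries. The other 2 are counts of summits in which 3 libraries were tied, so that any differing value meets the criterion and the rate for chance does not apply. ID3 had 15 H3K4me1 summits in shHNRNPU#2 repeat 2 against 13 in each of the others, and that list was the longest with 214333 summits. SKIL had 2 H3K27ac summits in shHNRNPU#2 repeat 1 against 1 in each of the others.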

How the results depend on the processing

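With the 20000 strongest summits, H3K4me1 was lower at 1 member (NODAL) and H3K27ac at 0, and 0 sites were lost (in shLUC alone) or gained (in shHNRNPU alone) in H3K4me1 and 0 lost in H3K27ac. Within 5 kb, H3K4me1 was lower at 0 members, with 2 sites lost, 0 H3K27ac sites were lost and POLIIS2P was higher at 0. As titled, H3K4me1 was lower at 1 and higher at 6 members, with 1 site lost and 40 gained, NODAL reversed to 50.7 points, and H3K27ac was lower at 7, with 67 sites lost. With shHNRNPU#1 alone, H3K4me1 was lower at 4 and higher at 3, with 14 sites lost and 5 gained, and H3K27ac lower at 5, with 3 sites lost and 1 gained. With shHNRNPU#2 alone, H3K4me1 was lower at 4 and higher at 1, with 14 sites gained, and 2 H3K27ac sites were lost and 2 gained. By log10 rank POLIIS2P was higher at 2 members. HNRNPU sites were found at 8 members with repeats within 500 bp and at 10 with the interval list. The cause of these shifts was not tested. Shares of all genes are given only for the main setting, the sample titles and the HNRNPU alternatives. The other counts of members therefore have no background to be read against, and groups of fewer libraries come apart more easily.

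Leaving out 1 library at a time, H3K4me1 was lower at 2 to 4 members and higher at 0 to 1, with 5 to 11 sites lost and 2 to 4 gained. H3K27ac was lower at 1 to 5 members, with 1 to 15 sites lost and 0 to 1 gained, and POLIIS2P was lower at 7 to 8 and higher at 2 to 3. The highest counts of members lower and of sites lost came without a shLUC library. No share of all genes is given for these reduced sets, so these counts are not read as results about the members. The 4 gained H3K4me1 sites came without shHNRNPU#1 repeat 2 or shHNRNPU#2 repeat 1, 1 member was higher in H3K4me1 without shHNRNPU#1 repeat 2, either shHNRNPU#2 library or shLUC repeat 2, and H3K27ac was lower at 2 members without either shHNRNPU#2 library. Without shLUC repeat 2, H3K4me1 was lower at BAMBI and ID1 too. Without shLUC repeat 1, H3K27ac was lower at LEFTY2, SMAD7, SKIL and ID1 too, and without shLUC repeat 2 at LEFTY1, BAMBI and SMAD3 too. NODAL and SKIL for H3K4me1 and ID3 for H3K27ac were called in each of these. That was fixed in advance, because groups that do not overlap stay apart when a library is left out. Over the counts that answer a comparison, 64 values under an alternative stayed within 1.5 times the main value and 50 did not.

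The repeat numbers showed no pairing at the level of genes, since deviations of repeat 1 correlated between groups at -0.02 to 0.03. Percentiles within a list remove shifts of the whole list, so whether repeats were prepared together cannot be told from this. With the replicate block, H3K27ac was lower at 2 members (LEFTY1 and ID3), the other counts did not change, and the smallest possible p-value was 0.111.

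Depth is unknown, and a gene without a summit had none called at the depth of that library.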
